A study of Mus musculus with 6 samples.

Results

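Transcripts of 10 glycolysis and hypoxia response genes were followed in cultured mouse dermal fibroblasts after loss of YAP and TAZ, with and without an inhibitor of STING. The genes were Slc2a1, Pfkl, Aldoa, Pgk1, Eno1, Ldha, Pdk1, Vegfa, Bnip3 and Egln3. They were selected by gene symbol from a list drawn up with earlier results of these data known, and all 10 were present among the 13706 genes of the table. In YAP/TAZ knockout cells 7 of the 10 were lower than in control cells, as were 14.2% of all genes tested, and in knockout cells given the inhibitor all 10 were lower than in control cells, as were 11.4% of all genes tested. None was higher in any of the 3 comparisons of groups.

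The cells were primary dermal fibroblasts, and each of the 3 groups held 2 libraries. The KO + H-151 group carried R26-CAG-CreER together with Yap1 fl/fl and Wwtr1 fl/fl and received 1 µM H-151, a small molecule that inhibits STING, for 72 hr. The KO group had the same genotype and no H-151. Control cells were Yap1 fl/fl; Wwtr1 fl/fl without Cre. All groups, controls included, received 1 µM 4-hydroxytamoxifen for 72 hr, which activates the Cre recombinase expressed from the ROSA26 locus in the KO cells. An effect of active Cre and one of YAP/TAZ loss cannot be told apart in this design, and H-151 in control cells was not analysed here. The oxygen level of the cultures is not given in the sources used here. Nothing in the labels states that the 2 libraries of a group are independent cultures or animals, and p-values therefore reflect the spread between libraries, which may be technical.

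Glycolysis turns glucose into pyruvate in the cytosol, and lactate dehydrogenase then reduces pyruvate to lactate. When oxygen is scarce, prolyl hydroxylases no longer mark the alpha subunit of hypoxia-inducible factor (HIF) for destruction. HIF then binds short elements in or near glycolytic genes, Vegfa, Bnip3 and Egln3. YAP and TAZ, encoded by Yap1 and Wwtr1, are co-activators that act with TEAD factors, and STING is the adaptor that signals after cytosolic DNA has been sensed.

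Levels are given as scaled CPM, read counts normalized to library size,, from a method that reads the 3′ end of each transcript, so 1 transcript gives about 1 tag whatever its length. The libraries held 12444986 to 15308100 reads, and 1 read was worth 0.0625 to 0.0871 scaled CPM. Wwtr1 had 3.07 and 4.00 scaled CPM in KO + H-151 cells and 4.79 and 5.03 in KO cells, against 213 and 218 in control cells. Yap1 had 45.3 and 42.4 scaled CPM in KO + H-151 cells and 66.4 and 68.3 in KO cells, against 122 and 128 in control cells. Yap1 was thus also lower in KO + H-151 than in KO cells, at -0.61 on the log2 scale (limma adjusted p = 8.35e-06). Wwtr1 was too, at -0.39 (limma adjusted p = 0.0258), a call lost in 9 of 19 alternative settings. The part of these differences in the results on H-151 was not tested. All 9 fibroblast markers were present, with sums of 24097 to 26060 scaled CPM in KO + H-151 cells, 37184 to 39103 in KO cells and 32539 to 33088 in control cells. They did not share one direction. In KO + H-151 against KO cells Dcn, Lum, Pdgfra and Thy1 were called higher and the other 5 lower. Over all genes tested these shares were 19.4% and 21.4%. In KO against control cells Col1a1, Col1a2 and Lum were called higher and Pdgfra lower, beside 18.2% and 14.2% of all genes. Markers of macrophages were present too, at 3086 to 3743 scaled CPM in KO + H-151 cells, 1473 to 1486 in KO cells and 1212 to 1392 in control cells, and none of the 10 was at 0. All 10 passed the test as higher in KO + H-151 than in KO cells, beside 19.4% of all genes tested. The part of these markers in the results on H-151 below was not tested. Melanocyte and Schwann cell markers, 8 of 11 in the table and none at 0, summed to 86.4 to 104 scaled CPM in KO + H-151 cells, 181 to 195 in KO cells and 81.8 to 90.4 in control cells. In KO against control cells 5 of these 8 were called higher and 2 lower, beside 18.2% and 14.2% of all genes tested. The part of these 8 in the results on KO cells was not tested. In such bulk cultures fewer cells of a type and less RNA per cell cannot be told apart.

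The promoters of the genes are shown for the letters through which HIF is known to act. RefSeq promoters on GRCm38.p6, 250 bases before to 50 bases after each annotated start, were found for all 10 genes, 17 promoters in all. The core of the hypoxia response element was searched as ACGTG or GCGTG on both strands. At least 1 match was present in 10 of 10 genes and in 14 of 17 promoters, beside 46.7% of 27025 genes and 43.8% of 32851 promoters with the same window. Both cores contain CG, and GC content ran from 40.3% to 71.7% in the 17 promoters. The shares over all genes were not matched for GC content or for the number of promoters per gene, so no enrichment is claimed. The 3 promoters without these letters were 1 each of Pdk1, Aldoa and Vegfa. That of Vegfa, at chr17:46032328-46032627 on the minus strand, lies at the 5′ end of the gene, and the Vegfa promoter with 2 matches, at chr17:46025114-46025413, lies at an internal start. The first promoter in the RefSeq table is printed for 5 genes that stand for glucose entry, glycolysis, pyruvate use and mitophagy, 5′ to 3′ on the strand of the gene, with every match on either strand in capitals. Ldha at chr7:46845554-46845853, plus strand, held 7 matches, and Bnip3 at chr7:138909457-138909756, minus strand, held 5. Pdk1 at chr2:71872974-71873273, Pgk1 at chrX:106186850-106187149 and Slc2a1 at chr4:119108495-119108794, all on the plus strand, held 2 each.
Slc2a1: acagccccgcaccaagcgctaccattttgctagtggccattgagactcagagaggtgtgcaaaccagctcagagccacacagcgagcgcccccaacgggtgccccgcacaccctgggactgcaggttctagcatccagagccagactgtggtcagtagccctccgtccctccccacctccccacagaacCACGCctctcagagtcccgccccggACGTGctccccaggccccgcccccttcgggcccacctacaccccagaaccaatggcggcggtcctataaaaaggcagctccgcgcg
Pgk1: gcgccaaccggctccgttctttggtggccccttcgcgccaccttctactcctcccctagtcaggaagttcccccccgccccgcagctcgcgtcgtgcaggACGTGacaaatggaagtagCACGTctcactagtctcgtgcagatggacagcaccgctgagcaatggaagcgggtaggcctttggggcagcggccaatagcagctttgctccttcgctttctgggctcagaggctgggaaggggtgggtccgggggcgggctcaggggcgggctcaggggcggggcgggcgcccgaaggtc
Ldha: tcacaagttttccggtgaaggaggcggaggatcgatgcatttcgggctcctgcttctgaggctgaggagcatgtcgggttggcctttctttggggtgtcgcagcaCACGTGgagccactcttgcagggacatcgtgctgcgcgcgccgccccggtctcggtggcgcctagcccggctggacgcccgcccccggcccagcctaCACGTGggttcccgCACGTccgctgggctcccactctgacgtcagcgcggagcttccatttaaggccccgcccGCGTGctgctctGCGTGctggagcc
Pdk1: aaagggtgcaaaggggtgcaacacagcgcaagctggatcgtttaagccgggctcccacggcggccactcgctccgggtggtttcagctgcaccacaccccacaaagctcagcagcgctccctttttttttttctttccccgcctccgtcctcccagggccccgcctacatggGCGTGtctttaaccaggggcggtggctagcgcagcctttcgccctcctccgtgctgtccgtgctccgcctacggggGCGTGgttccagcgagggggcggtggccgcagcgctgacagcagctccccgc
Bnip3: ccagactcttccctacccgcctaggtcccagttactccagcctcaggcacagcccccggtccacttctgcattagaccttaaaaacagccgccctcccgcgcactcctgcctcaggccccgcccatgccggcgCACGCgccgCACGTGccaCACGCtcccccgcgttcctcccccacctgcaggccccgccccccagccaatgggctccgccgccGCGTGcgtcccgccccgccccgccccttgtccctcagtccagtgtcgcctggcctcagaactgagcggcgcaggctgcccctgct

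Some matches in Ldha and Bnip3 overlap, because the palindrome CACGTG reads as the core on both strands and each strand was counted. CACGTG was present in 2 of the 10 genes, Ldha and Bnip3, beside 8.09% of all genes. The TEAD element letters GGAATG on either strand were present in 2 genes, Aldoa and Eno1, beside 16.6% of all genes. A match of letters is a description of the window and no evidence of binding.

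In each comparison a gene is called higher or lower where limma's moderated test, adjusted over 13648 genes by the Benjamini-Hochberg method, gave a p under 0.05. In KO against control cells 0 of the 10 genes were called higher and 7 lower, Ldha, Pdk1, Slc2a1, Eno1, Vegfa, Bnip3 and Egln3. Over all genes tested 18.2% were called higher and 14.2% lower, 32.4% in either direction. All 10 estimates were below 0, so no threshold could call a gene higher in this fit. With edgeR or DESeq2, 0 of the 10 genes were called higher. The count of 7 was 4 without control replicate 1, 3 without control replicate 2, 4 without KO replicate 2 and 4 with DESeq2; Slc2a1, Eno1 and Bnip3 kept their call in each of these. Scaling by total counts gave 9 of the 10, and over all genes it turned 2483 higher and 1938 lower into 1727 higher and 4054 lower, while quantile normalization gave 1914 and 2987. The median difference of the 10 genes was -0.30 on the log2 scale, beside -0.01 over all genes tested. The KO and control libraries did not overlap for 9 of the 10 genes, a pattern present in 66.9% of all genes tested. Pgk1 was the exception.

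With H-151, 0 of the 10 genes were called higher and 6 lower than in KO cells without it, Ldha, Pdk1, Pgk1, Pfkl, Aldoa and Eno1, beside 19.4% of all genes called higher and 21.4% lower, 40.8% in either direction. All 10 estimates were again below 0, and 0 of the 10 genes were called higher with edgeR or DESeq2. The count of 6 was 3 without KO replicate 1, 2 without KO replicate 2 and 3 without KO + H-151 replicate 1, and Ldha and Pdk1 were called lower in each of these. It was also 3 under total-count scaling or quantile normalization, and over all genes total-count scaling turned 2643 higher and 2923 lower into 4770 higher and 1930 lower, and quantile normalization into 3546 and 2179. Slc2a1, Vegfa, Bnip3 and Egln3 were not called. The median was -0.24, beside 0.02 over all genes, and the libraries of the groups did not overlap for 7 of the 10, as for 69.2% of all genes. Set against control cells, 0 were called higher and 10 lower in KO + H-151 cells, beside 11.5% and 11.4% of all genes (22.9% in either direction). With edgeR or DESeq2, likewise 0 were called higher. The median was -0.65, beside 0.00. The libraries of these groups did not overlap for all 10 genes, as for 59% of all genes. These 3 comparisons share libraries, so a gene whose KO libraries lie low is drawn down in one comparison and up in the next by the same values.

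The means of all 10 genes stood in the same order, lowest in KO + H-151 cells, then KO, then control cells. The share of all genes tested with this order was not counted. This order is that of the deposited scaling. Scaling by total counts put the median of all genes at -0.16 in KO against control and at 0.18 in KO + H-151 against KO, and under it the H-151 differences of Slc2a1, Vegfa and Bnip3 were above 0. Quantile normalization likewise turned the H-151 differences of Slc2a1, Aldoa and Bnip3. The order of the KO and control means held under both scalings. The summed level of the 10 genes was 1542 and 1673 scaled CPM in KO + H-151 cells, 1949 and 1882 in KO cells, and 2158 and 2187 in control cells.

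**Figure D1:**
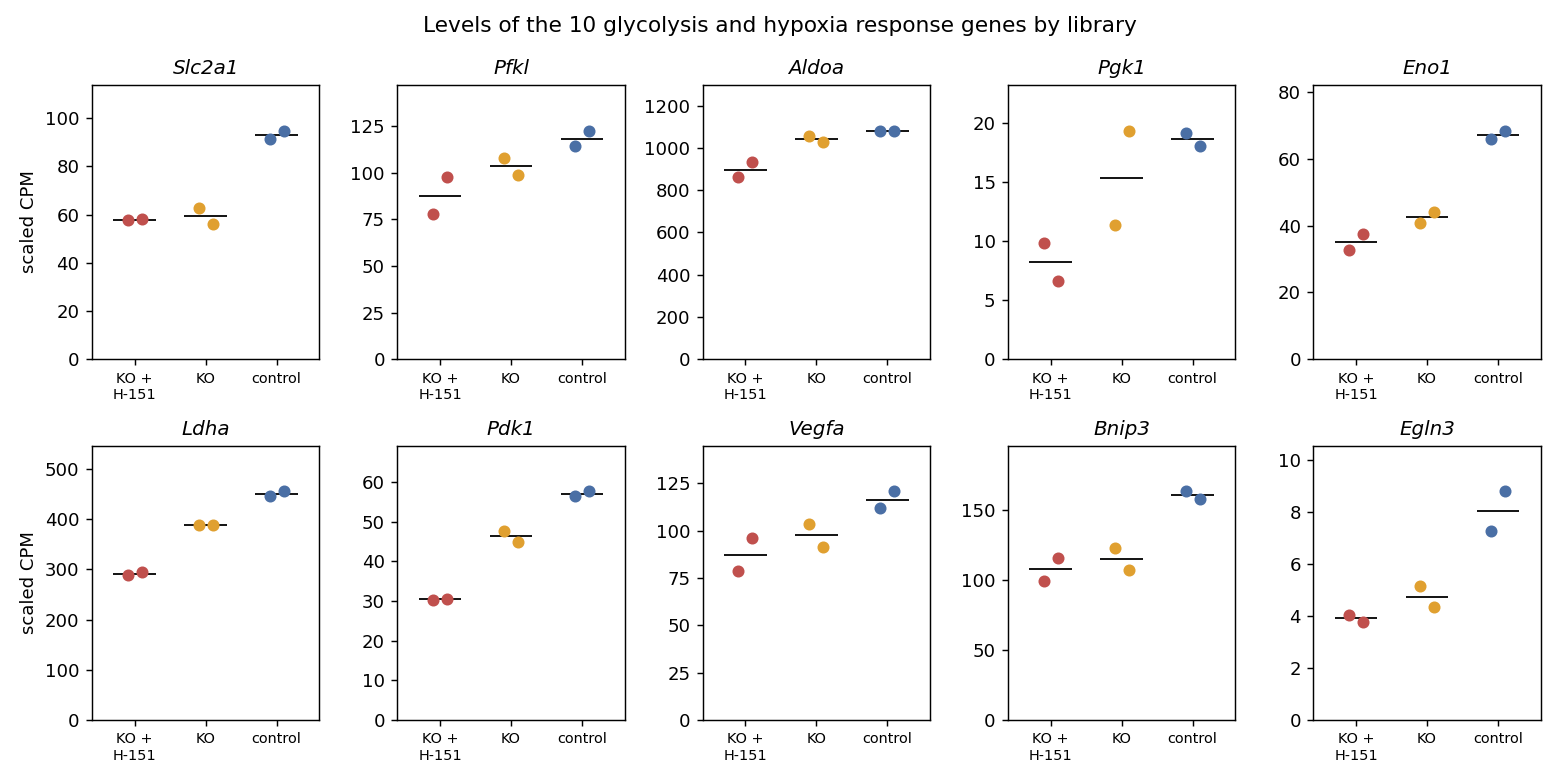
Level of each of the 10 genes in scaled CPM (vertical axes, each starting at 0) in the 2 libraries of KO + H-151, KO and control cells; points are libraries and lines are group means. Ldha, Pdk1 and Eno1 step down at each change of group, Slc2a1 and Bnip3 sit at like levels in both KO groups, and the 2 KO libraries of Pgk1 lie far apart, at 11.3 and 19.3.

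**Figure D2:**
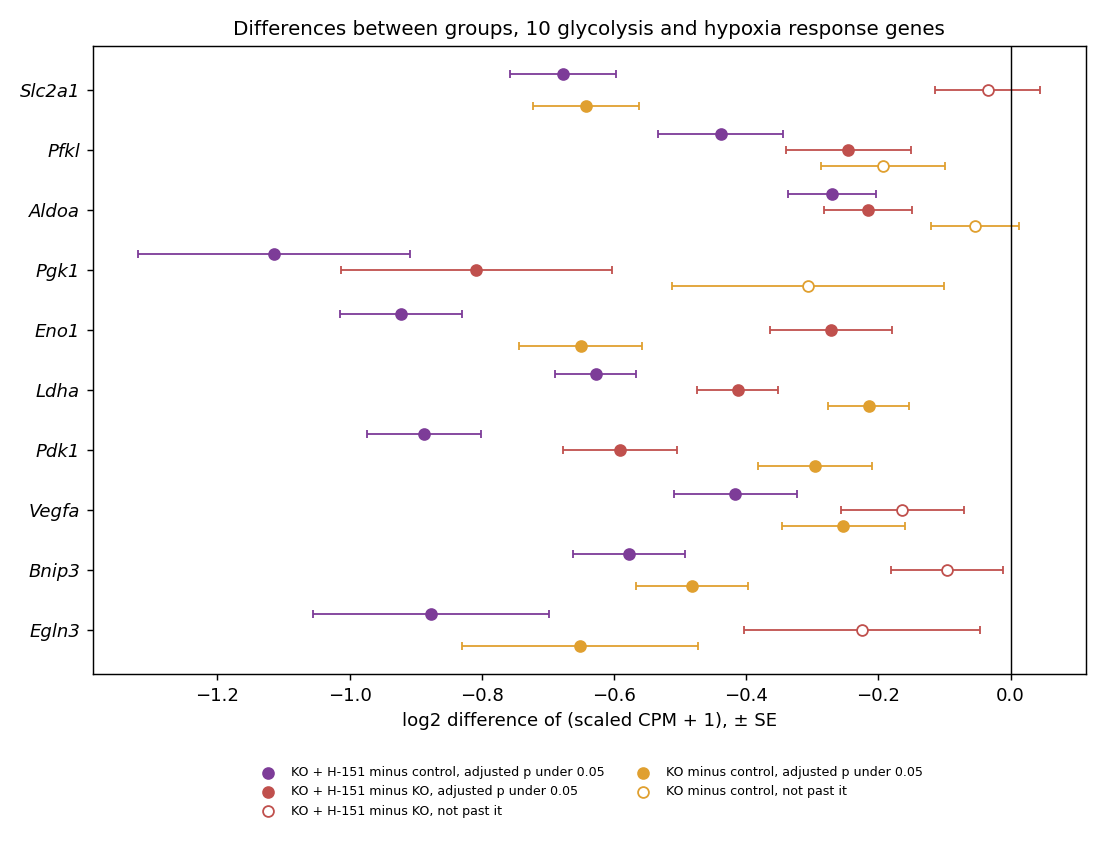
Difference of each of the 10 genes between groups on the log2(scaled CPM + 1) scale (horizontal axis), with bars of ± SE from the limma fit and filled points where the adjusted p was under 0.05. All points lie left of 0, and KO + H-151 against control is filled for all 10 genes.

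Slc2a1 encodes GLUT1, the main glucose transporter of fibroblasts, and lies at chr4:119108711-119137983 on the plus strand. It had 57.6 and 58.2 scaled CPM in KO + H-151 cells and 62.6 and 56.2 in KO cells, against 91.5 and 94.8 in control cells. All 4 KO libraries, with and without H-151, lay far below both control libraries, while the KO + H-151 and KO libraries overlapped. Slc2a1 fell in KO against control cells, with a log2 difference of -0.64 ± 0.08 (SE; limma adjusted p = 8.57e-06), to 59.4 ± 4.52 scaled CPM in KO cells against 93.2 ± 2.36 in control cells (SD, n = 2 each). Between KO + H-151 and KO cells the difference was -0.03 ± 0.08 (adjusted p = 0.763), with a 95% interval of -0.20 to 0.13. Slc2a1 also differed between KO + H-151 and control cells, by -0.68 ± 0.08 (adjusted p = 1.32e-05). The loss of transcript in KO cells was 36.2% of the control mean, and no alternative ended that call.

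Phosphofructokinase catalyses the committed step of glycolysis, and Pfkl encodes its liver-type subunit (chr10:77986947-78010083, minus strand). Pfkl had 77.7 and 97.7 scaled CPM in KO + H-151 cells and 108 and 99.0 in KO cells, against 114 and 123 in control cells. The 3 groups did not overlap, but the gap between the higher KO + H-151 library and the lower KO library was small beside the spread within either group. KO cells differed from control cells by -0.19 ± 0.09 on the log2 scale, which missed the threshold (adjusted p = 0.134, interval -0.39 to 0.01). Pfkl passed it in KO + H-151 against KO cells at -0.25 ± 0.09 (adjusted p = 0.0483). Without replicate 1 of the KO + H-151 libraries this value was -0.08 (adjusted p = 0.484) and without replicate 2 -0.41. Of the 19 alternatives, 14 ended the call, among them total-count scaling (-0.07, adjusted p = 0.561), quantile normalization (-0.08, 0.560), edgeR (0.0582) and DESeq2 (0.0846). Leaving out either KO library gave an adjusted p of 0.318 or 0.0958 and either control library 0.0608 or 0.0611. Against control cells the KO + H-151 cells were lower by -0.44 ± 0.09 (adjusted p = 0.00284), and -0.28 without the KO + H-151 replicate 1.

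Aldoa encodes aldolase A, which splits fructose 1,6-bisphosphate, and was the most abundant of the 10 transcripts (chr7:126795234-126800751, minus strand). It had 864 and 931 scaled CPM in KO + H-151 cells and 1058 and 1026 in KO cells, against 1081 and 1082 in control cells. Both KO libraries lay just under the control libraries, and both KO + H-151 libraries lay clearly lower. The KO mean was 3.66% under the control mean, with a log2 difference of -0.05 ± 0.07 (adjusted p = 0.581, interval -0.20 to 0.09). Aldoa fell in KO + H-151 against KO cells by 0.22 ± 0.07 on the log2 scale (adjusted p = 0.0164), a call lost without KO replicate 1 (0.148), KO replicate 2 (0.0782) or KO + H-151 replicate 1 (0.0810). Total-count scaling put that difference at -0.04 (adjusted p = 0.659) and quantile normalization at 0.05 (adjusted p = 0.592), and under these KO cells were called lower than control cells, at -0.22 (adjusted p = 0.0157) and -0.24 (adjusted p = 0.0101). Against control cells the KO + H-151 cells were lower by -0.27 ± 0.07 (adjusted p = 0.00753), with 0.0508 and 0.0566 when either control library was left out.

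Pgk1, on the X chromosome (chrX:106187100-106203699, plus strand), encodes phosphoglycerate kinase, which makes the first ATP returned by glycolysis. Pgk1 had 9.80 and 6.57 scaled CPM in KO + H-151 cells and 11.3 and 19.3 in KO cells, against 19.2 and 18.0 in control cells, from 105 to 269 reads per library. The KO libraries disagreed, one near the KO + H-151 libraries and the other at the control level. KO against control cells gave a log2 difference of -0.31 ± 0.21 (adjusted p = 0.280, interval -0.74 to 0.13), which was 0.05 without KO replicate 1 and -0.67 (adjusted p = 0.0498) without KO replicate 2. KO + H-151 against KO cells gave -0.81 ± 0.21 (adjusted p = 0.00488), and -0.45 (adjusted p = 0.148) without KO replicate 2. Only the difference between KO + H-151 and control cells does not rest on the KO libraries. There Pgk1 was lower by 56.0% in mean level (log2 difference -1.11 ± 0.21, adjusted p = 0.000836). The SE and adjusted p of Pgk1 rest on the KO libraries there too, because all 3 groups were fitted in 1 model. The last 1000 bases of its transcript share a stretch of at least 100 bases, at 98% identity or more, with 3 other annotated mouse genes, none of them in the table, so its tags may be undercounted and its level is uncertain.

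Eno1 encodes enolase 1, which forms phosphoenolpyruvate (chr4:150236721-150248879, plus strand). It had 32.7 and 37.5 scaled CPM in KO + H-151 cells and 40.8 and 44.2 in KO cells, against 66.1 and 68.5 in control cells. The control libraries stood well above the other 4, and the KO + H-151 libraries lay below the KO libraries without overlap. Eno1 fell in KO against control cells by 0.65 ± 0.09 on the log2 scale (adjusted p = 3.72e-05), a mean 36.8% lower. The further difference in KO + H-151 against KO cells was -0.27 ± 0.09 (adjusted p = 0.0270), and it missed the threshold without KO replicate 1 (0.0566), KO replicate 2 (0.195) or KO + H-151 replicate 1 (0.188, at a difference of -0.18). It missed it too with total-count scaling (-0.10, adjusted p = 0.392), quantile normalization (0.120), DESeq2 (0.0684) and a prior without a trend (0.0876). Against control cells the KO + H-151 cells were lower by -0.92 ± 0.09 (adjusted p = 2.36e-06). The end of Eno1 also has a near-identical copy, with 2 other annotated genes sharing at least 100 bases. None of these genes is in the table, so the tags of Eno1 may be undercounted and its level is uncertain.

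Ldha encodes the muscle-type subunit of lactate dehydrogenase, which turns pyruvate into lactate (chr7:46841475-46855627, plus strand). It had 288 and 296 scaled CPM in KO + H-151 cells and 388 and 389 in KO cells, against 447 and 456 in control cells. Replicates lay close together, and all 3 groups stood apart. Ldha fell in KO + H-151 against KO cells by 0.41 ± 0.06 on the log2 scale (adjusted p = 4.77e-05), a mean 24.9% lower, and none of the 19 alternatives ended this call, though quantile normalization gave -0.17 and total-count scaling -0.23. The KO against control difference was smaller, -0.21 ± 0.06 (adjusted p = 0.0129), and it missed the threshold when either control library (0.0523 and 0.0910) or either KO library (0.0923 and 0.0876) was left out, or with a prior without a trend (0.102). KO + H-151 cells differed from control cells by -0.63 ± 0.06 (adjusted p = 1.80e-06), with 292 ± 5.42 against 451 ± 6.14 scaled CPM (SD, n = 2 each).

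Pdk1 encodes a pyruvate dehydrogenase kinase, which inhibits pyruvate dehydrogenase and so keeps pyruvate out of the mitochondrial citric acid cycle (chr2:71873224-71903858, plus strand). Pdk1 had 30.3 and 30.5 scaled CPM in KO + H-151 cells and 47.7 and 44.9 in KO cells, against 56.5 and 57.7 in control cells. As for Ldha, the groups formed 3 separate steps. The step between KO + H-151 and KO cells was the larger, at -0.59 ± 0.09 on the log2 scale (adjusted p = 3.95e-05), and 34.4% of the KO mean. That between KO and control cells was -0.30 ± 0.09 (adjusted p = 0.0146) and missed the threshold without control replicate 1 (0.0620), control replicate 2 (0.0956) or KO replicate 2 (0.122) and with DESeq2 (0.0569). Pdk1 was lower by 46.8% in KO + H-151 against control cells (log2 difference -0.89 ± 0.09, adjusted p = 1.72e-06).

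Vegfa encodes the main angiogenic growth factor secreted under low oxygen (chr17:46016993-46032369, minus strand). It had 78.7 and 95.9 scaled CPM in KO + H-151 cells and 104 and 91.6 in KO cells, against 112 and 121 in control cells. The KO + H-151 and KO libraries overlapped, and the control libraries lay a little above them. KO against control cells gave -0.25 ± 0.09 on the log2 scale, just past the threshold (adjusted p = 0.0479). Each of the 4 libraries of that comparison ended the call when left out, with 0.0743 and 0.268 without a control library, and 0.0682 and 0.378 without a KO library, at a difference of -0.16 in the last case, and it was also lost with edgeR (0.0503) and DESeq2 (0.106). Its difference in KO + H-151 against KO cells was -0.16 ± 0.09 (adjusted p = 0.176, interval -0.36 to 0.03), and -0.30 (adjusted p = 0.00943) without KO + H-151 replicate 2. Vegfa was lower in KO + H-151 against control cells by -0.42 ± 0.09 (adjusted p = 0.00368), lost without control replicate 2 (0.0570) and -0.28 without KO + H-151 replicate 1.

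Bnip3 encodes a mitochondrial protein that promotes mitophagy (chr7:138890836-138909519, minus strand). It had 99.5 and 116 scaled CPM in KO + H-151 cells and 123 and 107 in KO cells, against 164 and 158 in control cells. All 4 KO libraries lay below both control libraries, and the 2 KO groups overlapped. Bnip3 fell in KO against control cells by 0.48 ± 0.08 on the log2 scale (adjusted p = 0.000324), to 115 ± 11.1 scaled CPM in KO cells against 161 ± 3.91 in control cells (SD, n = 2 each), and none of the 19 alternatives ended the call. KO + H-151 against KO cells gave -0.10 ± 0.08 (adjusted p = 0.397, interval -0.28 to 0.08), a difference whose sign turned without KO replicate 1 (0.0021) or KO + H-151 replicate 1 (0.014). KO + H-151 cells were lower than control cells by -0.58 ± 0.08 (adjusted p = 0.000116).

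Egln3 encodes PHD3, a prolyl hydroxylase that acts on HIF and is itself induced by it (chr12:54178981-54203860, minus strand). It was the least abundant of the 10, with 4.05 and 3.75 scaled CPM in KO + H-151 cells and 5.14 and 4.34 in KO cells, against 7.26 and 8.79 in control cells, from 51 to 122 reads per library. The groups did not overlap, and both control libraries stood highest. Egln3 fell in KO against control cells by 0.65 ± 0.18 on the log2 scale (adjusted p = 0.00998), a mean 41.0% lower, and the call was lost without control replicate 2 (0.114) or KO replicate 2 (0.0927) and with DESeq2 (0.0509). The difference between KO + H-151 and KO cells was -0.23 ± 0.18 (adjusted p = 0.339, interval -0.60 to 0.15). Egln3 was lower in KO + H-151 against control cells by -0.88 ± 0.18 (adjusted p = 0.00184).

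By call, Ldha, Pdk1 and Eno1 were lower in all 3 comparisons. Slc2a1, Vegfa, Bnip3 and Egln3 were lower in KO against control cells and not called in KO + H-151 against KO cells. Pgk1, Pfkl and Aldoa were called in KO + H-151 against KO and not in KO against control cells. These patterns of calls do not show that the genes differ in response, since the difference between comparisons was not tested.

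Several of the genes belong to families, and the share of the family's tags that each one held was also compared, as a description with no test. Slc2a1 held 55.5% and 55.2% of the tags of 7 glucose transporters in KO + H-151 cells and 63.1% and 56.2% in KO cells, against 69.9% and 72.7% in control cells. Pfkl held 60.1% and 63.2% of phosphofructokinase tags in KO + H-151 cells and 59.4% and 58.4% in KO cells, against 67.6% and 67.2% in control cells. For both genes the control libraries held the highest shares. Ldha held 92.3% and 93.8% of lactate dehydrogenase tags in KO + H-151 cells and 95.1% in each KO library, against 97.3% and 96.7% in control cells. Pdk1 held 34.0% and 32.8% of the tags of 3 pyruvate dehydrogenase kinases in KO + H-151 cells and 37.6% and 39.6% in KO cells, against 45.7% and 43.8% in control cells. The share of Pdk1 thus stepped down in the same order as its level, while Pdk2 held 18.4% and 17.2% in KO + H-151 cells and 8.10% and 7.89% in KO cells, against 8.99% and 9.25% in control cells. Egln3 was a small part of the 3 prolyl hydroxylases, at 2.20% and 2.10% in KO + H-151 cells and 2.81% and 2.38% in KO cells, against 3.24% and 3.89% in control cells.

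**Figure D3:**
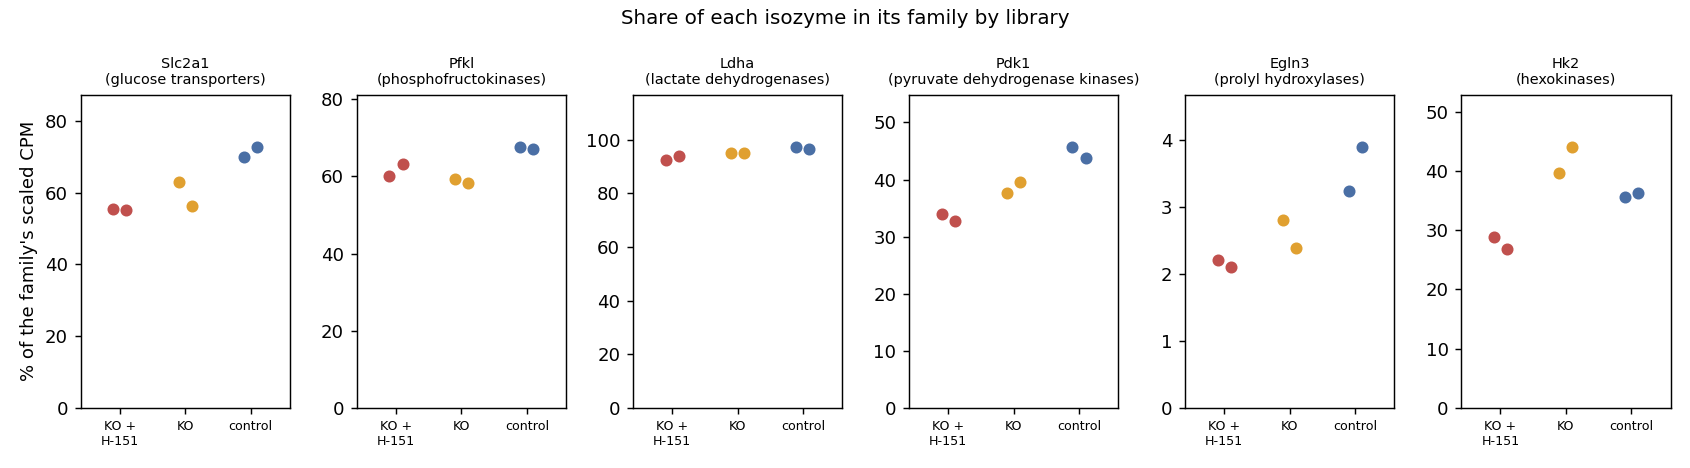
Share of a gene in the summed scaled CPM of its family (vertical axes, in %, each from 0) in the 2 libraries of KO + H-151, KO and control cells; points are libraries. The control libraries hold the highest shares of Slc2a1, Pfkl, Ldha, Pdk1 and Egln3, while the share of Hk2 is highest in KO cells, at 39.6% and 44.0%.

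The other glycolytic genes did not share one direction. Of 11 further glycolytic enzymes, 4 were higher and 1 lower in KO against control cells, beside 18.2% and 14.2% of all genes tested. Their median log2 difference was -0.04. In KO + H-151 against KO cells 2 were higher and 6 lower, beside 19.4% and 21.4% of all genes, with a median of -0.27. The hexokinases, which trap glucose in the cell, moved opposite to Slc2a1 in KO cells. Hk2 had 42.7 and 42.5 scaled CPM in KO + H-151 cells and 112 and 125 in KO cells, against 66.5 and 73.1 in control cells. It rose in KO against control cells by 0.75 ± 0.08 on the log2 scale (adjusted p = 1.88e-06) and fell in KO + H-151 against KO cells by 1.45 ± 0.08 (adjusted p = 4.29e-10), below the control libraries. Hk1 rose by 0.41 ± 0.08 (adjusted p = 0.000515) and fell by 0.57 ± 0.08 (adjusted p = 1.35e-05) in the same comparisons. The platelet-type phosphofructokinase Pfkp did likewise, at 0.51 ± 0.10 (adjusted p = 0.000913) and -0.65 ± 0.10 (adjusted p = 7.15e-05). Pfkm, the muscle-type subunit, named after its values were seen, was called higher in KO + H-151 against KO cells at 0.38 ± 0.13 (adjusted p = 0.0304), a call lost without KO replicate 1 (0.0886), KO replicate 2 (0.135) or KO + H-151 replicate 1 (0.192) and with DESeq2 (0.106).

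Pfkfb3, whose product makes fructose 2,6-bisphosphate and thereby activates phosphofructokinase, had larger differences in both comparisons than any of the hexokinase and phosphofructokinase genes. It had 77.3 and 62.9 scaled CPM in KO + H-151 cells and 229 and 226 in KO cells, against 75.8 and 80.1 in control cells. The KO libraries stood far above the other 4, which overlapped. Its log2 difference was 1.54 ± 0.09 in KO against control cells (adjusted p = 4.73e-10) and -1.69 ± 0.09 in KO + H-151 against KO cells (adjusted p = 1.22e-10). Of the 5 tested regulators of fructose bisphosphate, Pfkfb3 was the 1 called in either comparison. Over all genes tested 32.4% were called in KO against control and 40.8% in KO + H-151 against KO cells.

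In the lower pathway Gapdh, Pkm and Tpi1 were called lower in KO + H-151 against KO cells and Eno2 higher. Gapdh, glyceraldehyde-3-phosphate dehydrogenase, had 45.9 and 40.9 scaled CPM in KO + H-151 cells and 58.9 and 63.2 in KO cells, against 77.5 and 76.5 in control cells. The 3 groups stood apart, in the order of Ldha and Pdk1. Gapdh was lower by -0.33 ± 0.08 in KO against control cells (adjusted p = 0.00658, and 0.0893 without KO replicate 1) and by -0.48 ± 0.08 in KO + H-151 against KO cells (adjusted p = 0.000243). Its 3′ end is shared by 44 other annotated genes over at least 100 bases, so its level is uncertain. Pkm, pyruvate kinase, had 270 and 314 scaled CPM in KO + H-151 cells and 347 and 359 in KO cells, against 351 and 364 in control cells. Within its last 1000 bases Pkm shares at least 100 bases with 2 other annotated genes, 1 of them in the table, so its level is uncertain. Pkm was called lower in KO + H-151 against KO cells at -0.28 ± 0.07 (adjusted p = 0.00657). That call was lost without KO replicate 2 (-0.25) or KO + H-151 replicate 1 (-0.17). It was also lost under total-count scaling (adjusted p = 0.279), quantile normalization (-0.03, adjusted p = 0.796) and a prior without a trend (0.0843). Tpi1, triosephosphate isomerase, named after its values were seen, gave -0.27 ± 0.08 in KO + H-151 against KO cells (adjusted p = 0.00902). The Tpi1 call was lost without KO replicate 1 (-0.24) or KO + H-151 replicate 1 (-0.20). Total-count scaling (adjusted p = 0.309), quantile normalization (-0.07, adjusted p = 0.506) and a prior without a trend (0.0927) also ended it. Eno2, the neuronal enolase, also named after its values were seen, had 23.8 and 25.7 scaled CPM in KO + H-151 cells and 14.7 and 16.3 in KO cells, against 19.5 and 19.0 in control cells. It stood highest in KO + H-151 cells, opposite to Eno1, and rose there against KO cells by 0.64 ± 0.12 (adjusted p = 0.000344).

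Of 10 other transporters of glucose and lactate, 2 were higher and 1 lower in KO against control cells, beside 18.2% and 14.2% of all genes. In KO + H-151 against KO cells 2 were higher and 3 lower, beside 19.4% and 21.4%. Slc16a3 encodes MCT4, the exporter of lactate that HIF induces. It had 40.7 and 65.5 scaled CPM in KO + H-151 cells and 73.7 and 64.3 in KO cells, against 93.7 and 103 in control cells. The control libraries were highest, and the KO + H-151 libraries lay far apart. Its log2 difference was -0.51 ± 0.15 in KO against control cells (adjusted p = 0.0140). In KO + H-151 against KO cells it was -0.41 ± 0.15 (adjusted p = 0.0366). Of the 19 alternatives, 5 ended the first call, among them DESeq2 (adjusted p = 0.205) and a prior without a trend (0.140). The second was lost in 10, among them edgeR (0.0530), DESeq2 (0.322), total-count scaling (0.204) and quantile normalization (0.183). Leaving out control replicate 2 (0.113), KO replicate 1 (0.0623) or KO replicate 2 (0.196) ended the first call. The second was lost without KO replicate 1 (0.300), KO replicate 2 (0.0951) or KO + H-151 replicate 1 (0.600, at -0.07), and was -0.74 without KO + H-151 replicate 2. The insulin-responsive glucose transporter Slc2a4 was at 4.64 and 3.19 scaled CPM in KO + H-151 cells and 0.261 and 0.766 in KO cells, against 0.712 and 0.288 in control cells, a rise of 1.70 ± 0.25 in KO + H-151 against KO cells (adjusted p = 4.17e-05) and of 0.81 with a pseudocount of 4.

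**Figure D4:**
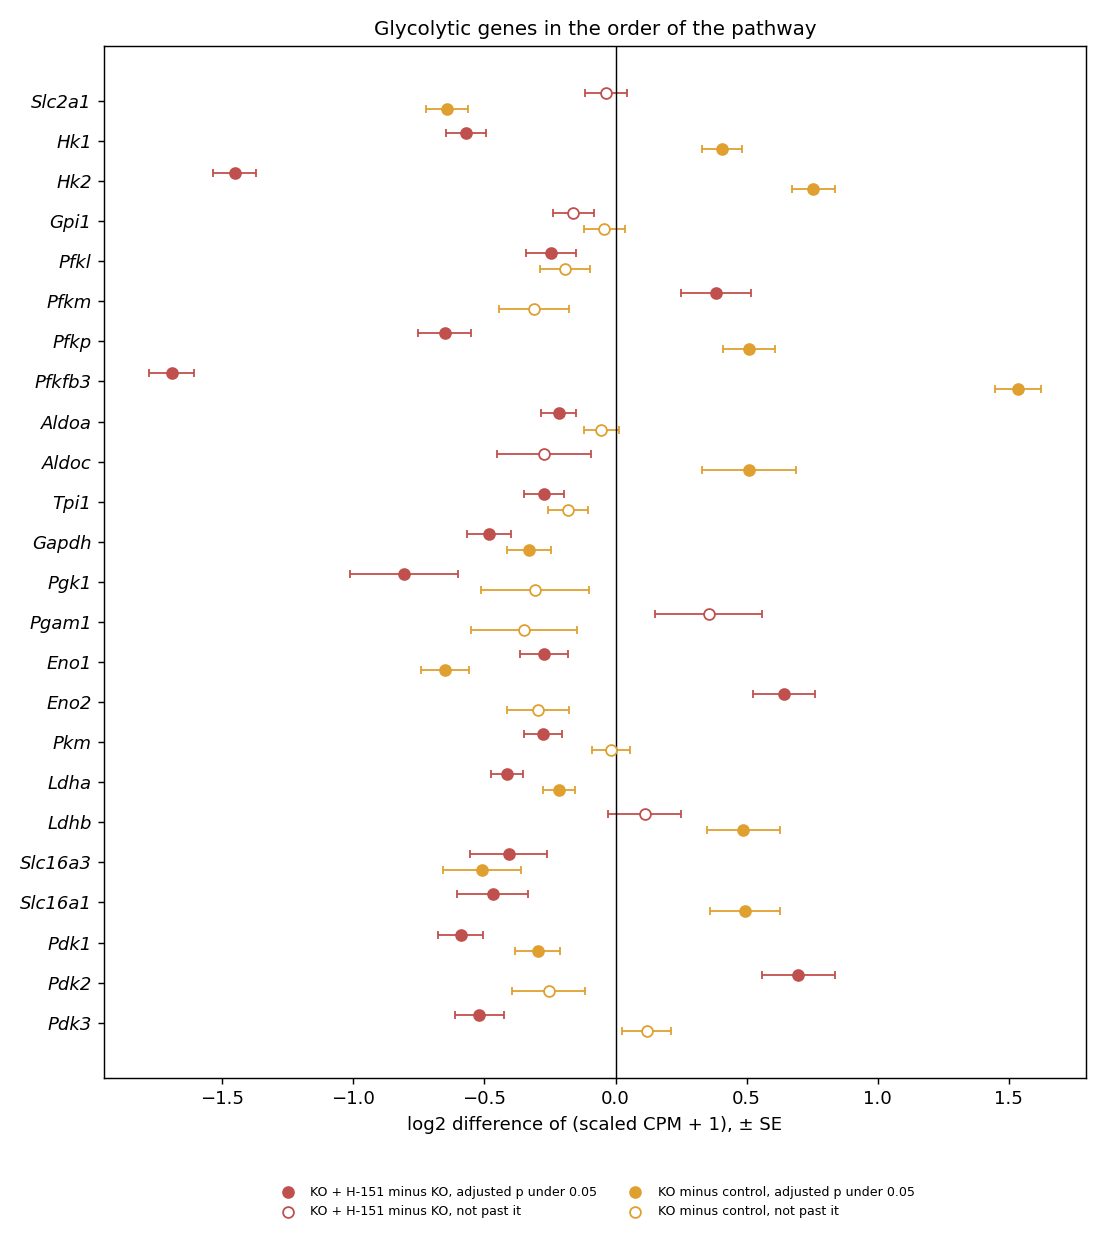
Difference of glycolytic genes, from glucose entry at the top to the fate of pyruvate at the bottom, on the log2(scaled CPM + 1) scale (horizontal axis), for KO + H-151 minus KO and KO minus control; bars are ± SE of the limma fit and filled points have an adjusted p under 0.05. Hk1, Hk2, Pfkp and Pfkfb3 lie right of 0 in KO against control cells and left of it in KO + H-151 against KO cells, while Eno1, Ldha, Pdk1 and Gapdh lie left of 0 in both.

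Genes around Pdk1 that set the entry of pyruvate into mitochondria included 13 tested genes. In KO against control cells 3 were higher and 1 lower, beside 18.2% and 14.2% of all genes tested. In KO + H-151 against KO cells 4 were higher and 1 lower, beside 19.4% and 21.4%. Pdk2, a kinase of the same family as Pdk1, had 16.4 and 15.9 scaled CPM in KO + H-151 cells and 10.3 and 8.94 in KO cells, against 11.1 and 12.2 in control cells. It rose in KO + H-151 against KO cells by 0.70 ± 0.14 (adjusted p = 0.000761), opposite to Pdk1. Pdk3 fell there with Pdk1, by 0.52 ± 0.09 (adjusted p = 0.000319). Pcx, pyruvate carboxylase, rose there by 1.15 ± 0.14 (adjusted p = 5.48e-06). The phosphatase gene Pdp1, which opposes the kinases, fell in KO against control cells by 0.60 ± 0.10 (adjusted p = 0.000142) and rose in KO + H-151 against KO cells by 0.48 ± 0.10 (adjusted p = 0.000844).

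Among 9 tested genes of oxygen sensing, 1 was higher and 3 lower in KO against control cells, beside 18.2% and 14.2% of all genes. Hif1a, which encodes HIF-1 alpha, had 211 and 217 scaled CPM in KO + H-151 cells and 195 and 202 in KO cells, against 263 and 286 in control cells. All 4 KO libraries lay below both control libraries. Hif1a fell in KO against control cells by 0.46 ± 0.07 (adjusted p = 4.20e-05), as did Egln1, the main HIF prolyl hydroxylase, by 0.44 ± 0.08 (adjusted p = 0.000266). Epas1, which encodes HIF-2 alpha, was at 43.5 and 42.3 scaled CPM in KO + H-151 cells and 24.0 and 27.2 in KO cells, against 34.0 and 37.8 in control cells. It was lower in KO against control cells by -0.47 ± 0.10 (adjusted p = 0.00162) and higher in KO + H-151 against KO cells by 0.72 ± 0.10 (adjusted p = 2.29e-05). Cited2, a co-factor that competes with HIF for its co-activator, moved the other way, at 0.39 ± 0.08 (adjusted p = 0.000933) and -0.71 ± 0.08 (adjusted p = 1.66e-06). Vhl, the ligase subunit that marks HIF alpha for destruction, had 29.4 and 27.8 scaled CPM in KO + H-151 cells and 29.5 and 26.7 in KO cells, against 29.8 and 27.9 in control cells, with overlap of all 3 groups. The HIF alpha subunits are governed mainly at the protein level, which was not measured here.

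A list of 24 other genes known to respond to hypoxia had 22 tested. In KO against control cells 2 were higher and 10 lower, beside 18.2% and 14.2% of all genes (median -0.18, beside -0.01). In KO + H-151 against KO cells 6 were higher and 12 lower, beside 19.4% and 21.4% (median -0.23, beside 0.02). Against control cells, 1 was higher and 12 were lower in KO + H-151 cells, beside 11.5% and 11.4% (median -0.46, beside 0.00). Adm, Angptl4, Ddit4, Ndrg1 and Ppp1r3c were called lower in KO against control cells and higher in KO + H-151 against KO cells. Both comparisons use the same KO libraries, so low KO values alone can give this pair of calls. The share of all genes with both calls was not counted. Adm, encoding the vasodilator peptide adrenomedullin, had 117 and 101 scaled CPM in KO + H-151 cells and 35.7 and 35.4 in KO cells, against 186 and 159 in control cells. The KO libraries were far below the rest, with the KO + H-151 libraries between them and the control libraries. Adm fell in KO against control cells by 2.24 ± 0.09 (adjusted p = 4.81e-12) and rose in KO + H-151 against KO cells by 1.58 ± 0.09 (adjusted p = 4.17e-10).

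Ddit4, an inhibitor of mTORC1 induced by stress and hypoxia, had 74.7 and 74.8 scaled CPM in KO + H-151 cells and 30.2 and 27.1 in KO cells, against 75.9 and 79.8 in control cells. Ppp1r3c, a glycogen-targeting phosphatase subunit, had 22.9 and 21.6 scaled CPM in KO + H-151 cells and 1.83 and 2.64 in KO cells, against 30.7 and 25.2 in control cells. Both were low in the KO libraries alone. Ddit4 differed by -1.41 ± 0.08 in KO against control cells (adjusted p = 9.68e-10) and 1.36 ± 0.08 in KO + H-151 against KO cells (adjusted p = 1.47e-09), and Ppp1r3c by -3.17 ± 0.16 (adjusted p = 9.05e-11) and 2.86 ± 0.16 (adjusted p = 3.24e-10). Ndrg1, a hypoxia-induced gene of growth arrest, gave -0.50 ± 0.07 (adjusted p = 1.80e-05) and 0.37 ± 0.07 (adjusted p = 0.000276).

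The next 4 genes, also of that list, were named after their values were seen, as was Angptl4 above. Fam162a, a mitochondrial protein gene induced by HIF-1, had 155 and 160 scaled CPM in KO + H-151 cells and 254 and 266 in KO cells, against 303 and 305 in control cells, in 3 separate steps. Fam162a differed by -0.72 ± 0.06 in KO + H-151 against KO cells (adjusted p = 1.19e-07) and by -0.23 ± 0.06 in KO against control cells (adjusted p = 0.0113, lost without control replicate 1 at 0.0582, control replicate 2 at 0.0707 or KO replicate 1 at 0.120). P4ha2, a collagen prolyl hydroxylase, was lower by -0.49 ± 0.08 (adjusted p = 7.34e-05) and -0.34 ± 0.08 (adjusted p = 0.00262, and 0.0657 without KO replicate 1) in the same comparisons. Higd1a, a small mitochondrial protein gene, and P4ha1, the partner of P4ha2, fell in KO + H-151 against KO cells by 0.81 ± 0.08 (adjusted p = 6.06e-07) and 0.60 ± 0.08 (adjusted p = 1.01e-05). P4ha1 had 133 and 150 scaled CPM in KO + H-151 cells and 217 and 214 in KO cells, against 190 and 216 in control cells, so its KO and control libraries overlapped. Bnip3l, the closest relative of Bnip3, had 70.8 and 73.0 scaled CPM in KO + H-151 cells and 74.8 and 77.0 in KO cells, against 74.8 and 76.5 in control cells. Its KO and control libraries overlapped, unlike those of Bnip3.

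**Figure D5:**
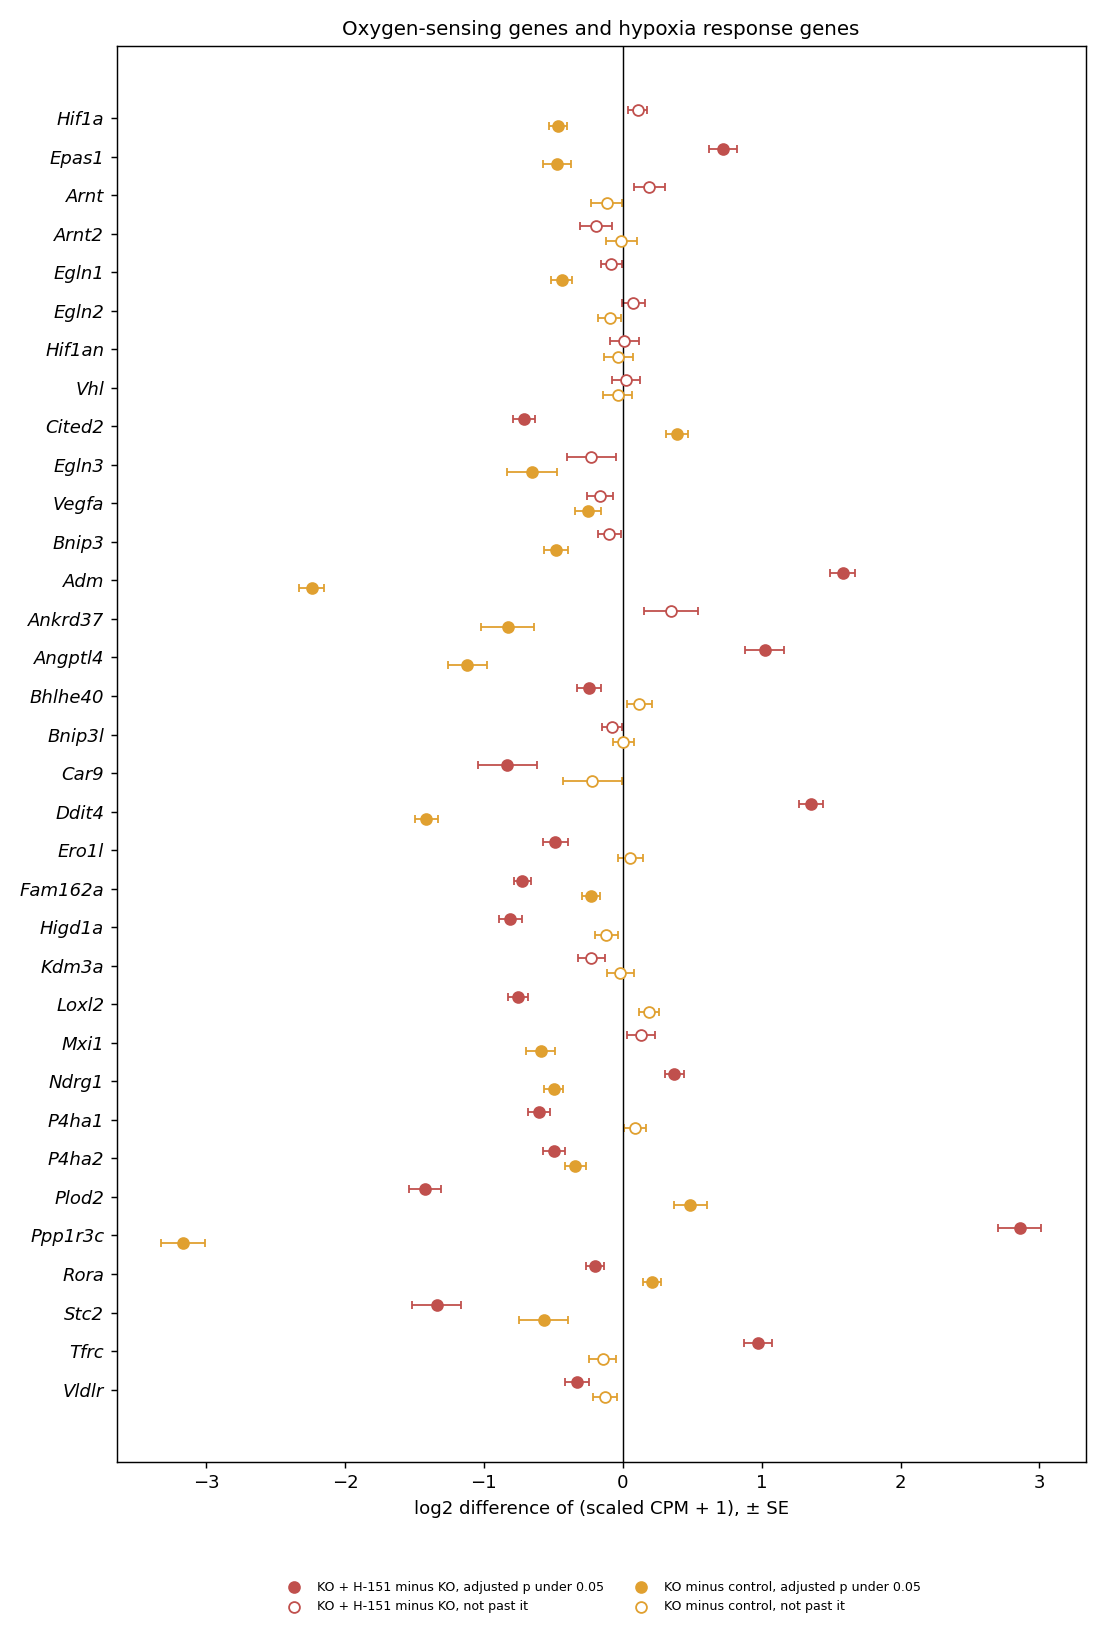
Difference of oxygen-sensing genes, of Egln3, Vegfa and Bnip3 and of 22 other hypoxia response genes on the log2(scaled CPM + 1) scale (horizontal axis), for KO + H-151 minus KO and KO minus control; bars are ± SE of the limma fit and filled points have an adjusted p under 0.05. Adm, Ddit4, Ppp1r3c and Ndrg1 lie left of 0 in KO against control and right of it in KO + H-151 against KO cells, while Egln3, Vegfa and Bnip3 lie left of 0 in both.

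The family of Vegfa had 8 other tested ligands and receptors. In KO against control cells 5 were higher and 2 lower, beside 18.2% and 14.2% of all genes tested. In KO + H-151 against KO cells 3 were higher and 2 lower, beside 19.4% and 21.4%. Vegfd, a lymphatic growth factor, had 183 and 195 scaled CPM in KO + H-151 cells and 125 and 127 in KO cells, against 254 and 235 in control cells. It fell in KO against control cells by 0.95 ± 0.07 (adjusted p = 1.15e-08) and rose in KO + H-151 against KO cells by 0.58 ± 0.07 (adjusted p = 3.76e-06). Pgf, placental growth factor, had 0.719 and 0.750 scaled CPM in KO + H-151 cells and 8.53 and 7.07 in KO cells, against 3.99 and 3.03 in control cells. Flt1, a receptor of both Vegfa and Pgf, had 3.59 and 2.81 scaled CPM in KO + H-151 cells and 8.01 and 12.6 in KO cells, against 3.92 and 3.24 in control cells. Both were highest in the KO libraries, with differences of 0.97 ± 0.20 (adjusted p = 0.00125) for Pgf and 1.28 ± 0.21 (adjusted p = 0.000167) for Flt1 in KO against control cells. In KO + H-151 against KO cells Pgf fell by 2.34 ± 0.20 (adjusted p = 7.94e-08; -1.31 with a pseudocount of 4) and Flt1 by 1.40 ± 0.21 (adjusted p = 5.19e-05). Endothelial markers, which Flt1 can also mark, summed to 20.3 to 23.1 scaled CPM in KO + H-151 cells, 12.7 to 13.8 in KO cells and 18.2 to 19.9 in control cells for the 7 of 8 present. In KO against control cells Kdr was called higher and Cdh5, Egfl7, Emcn and Pecam1 lower, beside 18.2% and 14.2% of all genes tested. In KO + H-151 against KO cells 4 were higher and 0 lower, beside 19.4% and 21.4%. The part of endothelial cells in the Flt1 result was not tested.

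The branches that leave glycolysis toward pentoses and serine held 10 tested genes. Of them 1 was called in KO against control cells, beside 32.4% of all genes tested. In KO against control cells the pentose epimerase gene Rpe alone passed the test, as higher (log2 difference 0.41, adjusted p = 0.00580, and 0.0512 without KO replicate 1). The counts in KO + H-151 against KO cells were 3 higher and 4 lower, beside 19.4% and 21.4% of all genes tested. The first step of the pentose branch, G6pdx, rose there by 0.48 (adjusted p = 0.000735). The serine synthesis genes Phgdh and Psat1 fell by 0.78 ± 0.11 (adjusted p = 4.10e-05) and 0.71 ± 0.09 (adjusted p = 4.44e-06).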

How the data were processed

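Polyadenylated RNA of 6 libraries was measured with QuantSeq 3′ mRNA-seq, per the labels' protocols. The submitters' processing notes list the mm10 build, edgeR, featureCounts and STAR 2.5.3a; the annotation, the strand setting and any filter are not given in the sources used here. The deposited values, a scaled signal, are CPM over an effective library size. All were whole multiples of 1 read within 0.0006 (100%), so reads were recovered by division. Libraries held 12444986 to 15308100 reads; counts limit precision most for Egln3 and Pgk1.

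Values were transformed to log2(scaled CPM + 1), which understates changes of low genes. Genes that reached 1 scaled CPM in 2 or more libraries were fitted together, all 3 groups in 1 model, with limma 3.58.1 in R 4.3.3 (trended prior; 13648 tested, 58 not), with Benjamini-Hochberg adjustment. The script was tested on simulated data. Alternatives were other pseudocounts, filters and scalings, no trend, the compared groups alone, a replicate block, each library left out, and edgeR 4.0.16 and DESeq2 1.42.0 on recovered reads. Coordinates are from GENCODE M21 on GRCm38, which is mm10, and transcript ends were compared with blastn 2.17.0.

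The 10 genes, the other lists and the rule for naming genes were chosen with earlier results of these data known. Of each other list that rule names the 3 genes with the smallest p in each of KO against control and KO + H-151 against KO, the 1 with the highest mean, and 11 chosen for their roles; of those, the genes described are a selection made with their values seen.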

Additional observations from a re-analysis of the deposited data

How the results depend on the processing

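Over 19 alternatives no gene of the 10 was called higher in any comparison. The number called lower was 7 in KO against control cells (4 with DESeq2, 3 to 8 with a library left out), 6 in KO + H-151 against KO cells (3 with quantile normalization, 3 with total-count scaling, 2 without a trend, 2 to 7 with a library left out) and 10 in KO + H-151 against control cells (7 without a trend, 8 to 10 with a library left out). Of 189 values of the 10 genes per comparison, 157, 150 and 183 kept direction and call in these comparisons. Among the 10 genes, directions turned in KO + H-151 against KO cells as follows. Slc2a1 gave 0.11 with quantile normalization, 0.14 with total-count scaling and -0.11 to 0.042 with a library left out. Bnip3 gave 0.088, 0.081 and -0.21 to 0.014 in the same order. Aldoa gave 0.047 with quantile normalization and Vegfa 0.013 with total-count scaling. In KO against control cells Pgk1 turned (-0.67 to 0.055 with a library left out). Bsg, of the transporter list and not among the 10, turned in KO + H-151 against KO cells (0.046 with quantile normalization). The cause was not tested, except that total-count and quantile scaling shift all genes, as given in the report. Over all genes, 2483 were called higher and 1938 lower in KO against control cells; the lower count was 1266 with a mean filter of 10, 2987 with quantile normalization, 4054 with total-count scaling, 1217 with DESeq2 and 1165 to 2186 with a library left out, 1165 to 1252 of them without any 1 control or KO library. In KO + H-151 against KO cells 2643 were higher (1676 with the mean filter, 4770 with total-count scaling) and 2923 lower (1930 with total-count scaling). In KO + H-151 against control cells 1570 were higher (951 to 1373 with a library left out, 951 without control replicate 2) and 1562 lower (937 without a trend, 924 to 1499 with a library left out, 924 without control replicate 2). Where an arm kept 1 library, it was assumed to vary like the other groups.

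With the replicate number as a block, 6, 6 and 10 of the 10 genes were lower in KO against control cells, in KO + H-151 against KO cells and in KO + H-151 against control cells, Vegfa being lost in the first (adjusted p = 0.0512). A crossed pairing, added after seeing the data, gave 8, 7 and 10. Deviations of same-numbered libraries correlated at -0.0676, -0.128 and 0.154, so the numbers are not shown to pair libraries. Each library held 12444986 to 15308100 reads. Among the 10 genes, reads were fewest for Egln3, at 51 to 122, and Pgk1, at 105 to 269. The KO libraries of Pgk1, at 130 and 227 reads, lay far apart, and the source of that spread was not tested.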
